A study of Danio rerio with 3 samples.

Results

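The genes described here are the semaphorins, the plexins, the neuropilins and the related plexin domain containing genes, taken as every row of the count tables whose symbol begins with sema and a digit, plxna to plxnd, plxdc, nrp1 or nrp2. 47 of the 27282 gene rows matched: 12 secreted class 3 semaphorins, 17 membrane-bound semaphorins of classes 4 to 7, 4 neuropilins, 12 plexins and 2 plexin domain containing genes. They were measured by droplet-based single cell RNA sequencing (10x Chromium, which counts unique molecular identifiers, UMIs, at the 3′ end of transcripts) of dissected hindbrain with its surrounding tissue from wild-type LondonAB zebrafish at 16, 24 and 44 hours post-fertilisation (hpf). Each stage was 1 library from about 40 pooled tissues, with embryos raised at 25, 28.5 and 25°C in stage order, so no stage had a replicate. Stage and library thus cannot be told apart, nor can the rearing temperature of 24 hpf from that stage.

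Semaphorins are guidance cues that mostly repel growing axons and migrating cells. The secreted class 3 members bind a neuropilin, which has little signalling capacity of its own and passes the signal on through an A-type plexin, whereas the membrane-bound classes mostly bind plexins directly. In the hindbrain, semaphorins released by the cells at segment boundaries repel the neurons that express *fgf20a* and so keep them at the centre of each segment, and neuropilins and plexins also guide neural crest streams, cranial nerves and blood vessels.

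The 3 libraries held 2929, 2568 and 3529 cells with a median of 9844, 8177 and 2727 UMIs, of which 2725, 2337 and 3097 cells were kept, and between 19 and 29 barcodes of each library also occurred in another. 5992 of the 8159 kept cells fell in 18 clusters named neural or floor plate-like and are called hindbrain cells. Within them, neurons are cells with at least 2 UMIs of the pan-neuronal genes *elavl3* and *elavl4* after each cell was thinned to 2000 UMIs, and progenitors are cells with none of these and at least 1 UMI of *sox2*, *sox3* or *sox19a*. These gates held 1532, 1006 and 519 progenitors and 83, 388 and 1143 neurons at the successive stages. Levels are given as CPM, the UMIs of a gene scaled to 1000000 UMIs of its group, with exact 95% intervals in brackets that cover counting error only, and no test across samples is possible with 1 library a stage. The cells taken as neurons still had 2773, 1945 and 654 CPM of *sox3*, so those of 16 and 24 hpf retained more of this progenitor gene than those of 44 hpf. RNA free in the suspension was present in hindbrain cells: *krt4*, an epidermal keratin, stood at 1.27%, 1.101% and 0.285% of its level in epidermis-like cells. 

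Most of the family was present at low levels. Of the 47 members, 3 (*sema4aa*, *sema4ga* and *sema4gb*) had no UMI in any kept cell, 7 had between 1 and 19, 37 had at least 20 and 28 had at least 100, with 14320 UMIs over all members. Summed over each role, class 3 semaphorins stood at 46.3, 22.2 and 15.8 CPM in progenitors of successive stages. Neuropilins together stood at 16.9, 9.04 and 14.1 in progenitors against 62.5, 69.4 and 47.6 in neurons. Plexins together stood at 57.01, 71.9 and 98.97 in progenitors against 94.4, 177 and 180.2 in neurons. The membrane-bound semaphorins differed less, between 46.01 and 69.4 across these 6 groups. In neurons class 3 semaphorins were at 61.1, 17.1 and 35.7. The summed neuropilins and the summed plexins were thus higher in neurons at each stage, while the class 3 ligands were higher at 44 hpf and had overlapping intervals at 16 and 24 hpf. The symbols *SEMA4F* and *SEMA4D*, written in capitals in the tables, fall outside the rule, and *SEMA4F* had 129, 140 and 35 UMIs at the successive stages.

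The comparison of neurons with progenitors shows which members were higher or lower in differentiating cells. The higher ones included the receptors *nrp1a* at each stage, *nrp2a*, *nrp2b* and *plxnb1a* at 16 and 24 hpf, *plxna4* at 24 and 44 hpf and *plxna1a* at 44 hpf. Of the lower ones, *plxdc2* and *sema3fb* were lower at 24 and 44 hpf and *sema5bb* at 24 hpf. The plexins *plxna1b*, *plxnb1a* and *plxnb1b* were lower at 44 hpf, so receptors were among the lower members at that stage too. At 16 hpf 8 of 25 members with at least 20 UMIs over both groups were 2-fold or more higher in neurons and 3 were 2-fold or more lower, where 14.6% and 19.9% of all genes were. The 3 lower ones, *sema3fa*, *sema3gb* and *sema4ab*, had at most 1 UMI in neurons and intervals that held 1. The interval of *plxna3*, counted as higher, held 1 too. At 24 hpf the counts were 9 and 4 of 22, beside 20.1% and 17.5% of all genes. At 44 hpf they were 7 and 5 of 17, beside 24.2% and 18.1%. With a count of 0 set to 3 UMIs, the median log2 ratio of the members was 0.34, 0.25 and 0.79 at the 3 stages. That of all genes was 0.04, 0.02 and 0.11. In 16 hpf neurons 3 UMIs are 4.17 CPM, so *sema3fa* and *sema3gb*, counted as lower with no UMI there, enter that median as higher.

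The neuropilins that could be compared were higher in neurons at each stage. *nrp1a*, a receptor for class 3 semaphorins and for Vegf, stood at 15.3 (7.63 to 27.3), 24.2 (18.8 to 30.7) and 18.2 (13.9 to 23.4) in neurons and at 7.09 (5.82 to 8.56), 3.29 (2.18 to 4.75) and 1.17 (0.142 to 4.23) in progenitors. Neurons were higher at each stage. The excess was 2.15-fold (1.04 to 4.01), 7.37-fold (4.68 to 11.9) and 15.5-fold (4.11 to 131), the last against only 2 UMIs in progenitors. With cells classed by clusters of each stage instead of the *elavl* gates, the 24 hpf ratio was 12.8. Clusters named neither neural progenitor nor differentiating neuron were left out of that ratio. *nrp2a*, which favours the Sema3f type of ligand in mammals, had 18, 64 and 79 UMIs in neurons, or 25.0, 22.8 and 23.9 CPM, so its neuronal level was nearly the same at each stage. Against progenitors it was 4.82-fold (2.72 to 8.11), 4.98-fold (3.29 to 7.62) and 1.95-fold (1.19 to 3.32) higher. Its duplicate *nrp2b* was at 22.2 (12.7 to 36.1) and 21.01 (15.99 to 27.1) in the first 2 stages and at 4.24 (2.32 to 7.12) at 44 hpf, so the duplicates stood close at 16 and 24 hpf and apart at 44 hpf. At 24 hpf *nrp2b* was 22.4-fold (10.6 to 54.2) higher in neurons, the largest ratio of the 4 neuropilins at that stage. *nrp1b* did not reach 20 UMIs in these comparisons, with at most 4 in any of the 6 groups.

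Among the plexins, *plxna4*, a co-receptor of neuropilins for class 3 ligands, was higher at each later stage in neurons and in progenitors. It had 3, 149 and 325 UMIs in neurons, which gives 4.17 (0.859 to 12.2), 53.1 (44.9 to 62.3) and 98.4 (88.03 to 109.7) CPM. In progenitors the levels were 0.657 (0.315 to 1.21), 9.39 (7.45 to 11.7) and 25.8 (18.7 to 34.6). Neurons exceeded progenitors 5.65-fold (4.28 to 7.51) at 24 hpf and 3.82-fold (2.78 to 5.36) at 44 hpf. *plxna1a*, another A-type plexin, stood at 6.94, 24.6 and 46.9 in neurons and at 6.44, 15.96 and 9.37 in progenitors. The excess in neurons reached 5.01-fold (2.99 to 8.98) at 44 hpf, whereas at 16 hpf it was 1.08-fold (0.343 to 2.604) with an interval that held 1. Its duplicate *plxna1b* went the other way at 44 hpf, with 5.76 (3.46 to 8.99) in neurons against 14.6 (9.47 to 21.6) in progenitors, a 2.54-fold (1.35 to 4.89) lower level. The duplicates therefore had opposite orders at that stage. *plxna3*, also an A-type plexin, was 4.35-fold (2.48 to 7.76) higher in neurons at 24 hpf, and *plxnb3*, a B-type plexin with 20 UMIs in neurons, 2.89-fold (1.49 to 5.601).

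**Figure D1:**
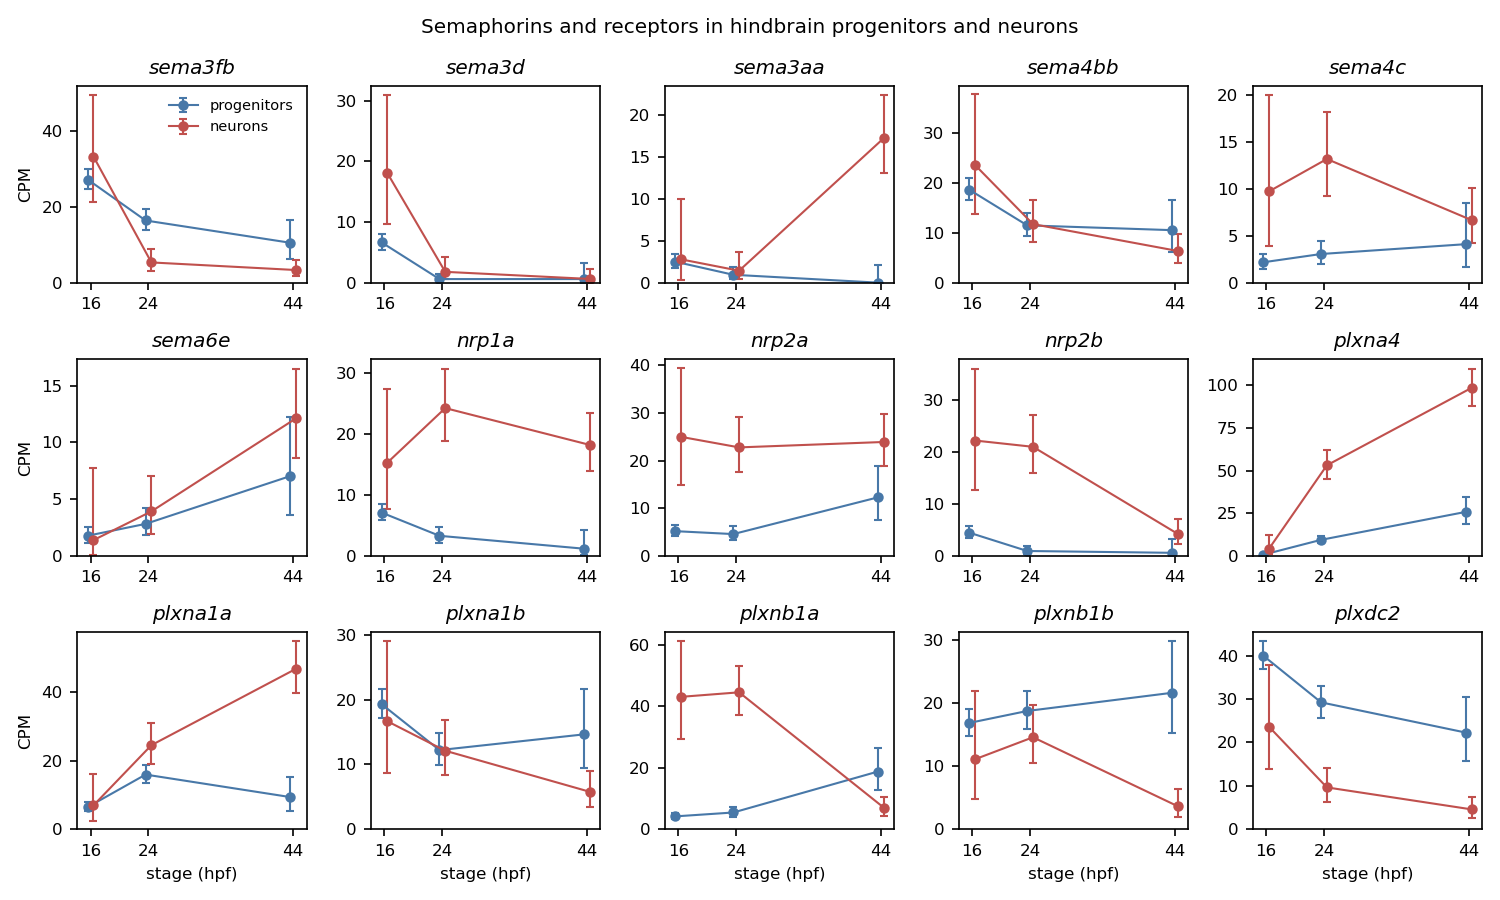
Level of 15 members in hindbrain progenitors and neurons (y axis, CPM) against stage (x axis, hpf, to scale); points are 1 library each and bars are exact 95% counting intervals. *plxna4* in neurons goes from 4.17 to 98.4, the neuropilin curves of neurons lie above those of progenitors, and the 2 curves of *plxnb1a* cross between 24 and 44 hpf.

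The B-type plexins, which bind class 4 semaphorins in mammals, did not share one direction. *plxnb1a* stood at 43.05 (29.2 to 61.1) in neurons against 4.14 (3.18 to 5.29) in progenitors at 16 hpf and at 44.5 (37.1 to 53.03) against 5.399 (3.95 to 7.201) at 24 hpf, an excess of 10.4-fold (6.54 to 16.2) and 8.24-fold (5.84 to 11.8). At 44 hpf the order was turned, with 6.97 (4.42 to 10.5) in neurons and 18.7 (12.8 to 26.5) in progenitors, a 2.69-fold (1.53 to 4.81) lower level. The intervals of neurons and progenitors did not overlap at any stage, and the difference between the stages was not tested. With clusters of each stage in place of the gates, the 16 hpf ratio was 18.99. Its progenitors were then a single cluster of 446 cells, and clusters named neither neural progenitor nor differentiating neuron were left out. *plxnb1b*, its duplicate, was within 2-fold at the first 2 stages and 5.96-fold (3.04 to 12.6) lower in neurons at 44 hpf, where clusters of each stage gave a ratio of neurons to progenitors of 0.0794. *plxdc2*, which encodes a membrane protein known in mammals as a receptor of pigment epithelium-derived factor, was the member of highest level in progenitors at 16 and 24 hpf. It stood at 40.0 (36.9 to 43.3), 29.2 (25.7 to 33.1) and 22.3 (15.7 to 30.5) in progenitors and at 23.6 (13.8 to 37.8), 9.61 (6.34 to 13.99) and 4.54 (2.54 to 7.49) in neurons. The level in neurons was 3.04-fold (2.04 to 4.71) lower at 24 hpf and 4.898-fold (2.63 to 9.58) lower at 44 hpf. *plxdc1* had 15 UMIs in all kept cells. The symbol *plxnb2a* occurs in 2 rows, of which the one with few UMIs, fewer than 20 in all kept cells, was kept apart.

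The order of the class 3 ligands differed between the stages. *sema3fb* was the most abundant of them at 16 hpf, at 27.3 (24.7 to 30.01) in progenitors and 33.3 (21.4 to 49.6) in neurons. By 24 hpf it stood at 16.4 (13.8 to 19.4) and 5.34 (2.99 to 8.81), and by 44 hpf at 10.5 (6.25 to 16.7) and 3.33 (1.66 to 5.96), which placed neurons 3.08-fold (1.803 to 5.64) and 3.16-fold (1.42 to 7.41) below progenitors. When every cell was thinned to 2000 UMIs the 24 hpf ratio of neurons to progenitors was 0.907 (0.324 to 2.23), close to 1. At 16 hpf that ratio was 1.22 (0.774 to 1.84), and 0.461 (0.0549 to 1.72) after thinning. In progenitors the ratio of 24 to 16 hpf was 0.603 (0.494 to 0.732). It was 0.873 (0.634 to 1.2) with clusters of each stage and 0.381 (0.221 to 0.628) after thinning. From 24 to 44 hpf it was 0.642 (0.369 to 1.05), and 1.36 (0.634 to 2.82) after thinning. Progenitors with the segment gene *egr2b*, described below, had more *sema3fb* at 16 and 24 hpf. They numbered 518, 249 and 7 of the 1532, 1006 and 519 progenitors, and their part in these ratios was not tested. *sema3d*, a class 3 ligand that guides axons in the zebrafish brain, was 2.72-fold (1.401 to 4.87) higher in neurons at 16 hpf, at 18.1 (9.61 to 30.9), and had at most 5 UMIs in each later group. With clusters of each stage in place of the gates its 16 hpf ratio was 10.9. The progenitors of that ratio were a single cluster of 446 cells, and clusters named neither neural progenitor nor differentiating neuron were left out. *sema3aa* showed the reverse order. It had 2, 4 and 57 UMIs in neurons, the last being 17.3 (13.1 to 22.4) CPM, and none in the 519 progenitors of 44 hpf. Taking 3 UMIs over the group for that count of 0, it was at least 9.83-fold higher in neurons at 44 hpf. *sema3fa*, the duplicate of *sema3fb*, was 2.697-fold (1.29 to 5.602) and 3.23-fold (1.12 to 12.8) higher in neurons at 24 and 44 hpf, opposite to its partner, while at 16 hpf it had no UMI in the 83 neurons.

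Of the membrane-bound semaphorins, *sema4bb* had the highest level in progenitors at each stage and in 16 hpf neurons. It lay between 6.36 and 23.6 over the 6 groups and stayed within 2-fold between neurons and progenitors at each stage. *sema4c*, whose mammalian counterpart binds plexin B2, was 4.48-fold (1.67 to 10.3) and 4.32-fold (2.54 to 7.43) higher in neurons at 16 and 24 hpf. *sema5bb*, a transmembrane semaphorin with thrombospondin repeats, was low in neurons at 24 hpf, with 48 UMIs in progenitors and 1 in neurons, 15.8-fold (2.71 to 638) lower. *sema6dl*, a transmembrane semaphorin of the class that binds A-type plexins in mammals, was 2.23-fold (1.12 to 4.04) higher in neurons at 16 hpf, and *sema6bb* 3.97-fold (1.198 to 20.6) at 44 hpf. *sema6e* stood at 1.39, 3.92 and 12.1 in neurons and 1.77, 2.82 and 7.03 in progenitors, so its level differed more between stages than between the kinds of cell.

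From 16 to 24 hpf, the plexins *plxna4*, *plxna1a* and *plxnb3* were higher and the ligands *sema3b*, *sema3d* and *sema3aa* lower in the later progenitors. From 24 to 44 hpf *plxna4* was higher again in progenitors and *sema3aa* was higher in neurons. In progenitors, 5 of 29 measured members were 2-fold or more higher at 24 than at 16 hpf and 6 were lower, where 8.92% and 16.5% of all genes were. From 24 to 44 hpf the counts were 4 and 4 of 21, beside 7.99% and 21.6% of all genes. In neurons 4 and 4 of 15 members were higher and lower at 24 than at 16 hpf, beside 16.2% and 12.6%, and 3 and 6 of 20 at 44 than at 24 hpf, beside 9.25% and 20.4%. With a count of 0 set to 3 UMIs, the median log2 ratios of the members were -0.18 and 0.15 in progenitors and 0.05 and -0.44 in neurons. Those of all genes were -0.19, -0.23, -0.03 and -0.23. The ligands *sema3b* and *sema3d* were 18.7-fold (4.99 to 158) and 11.3-fold (4.69 to 35.6) lower in progenitors at 24 than at 16 hpf, and *sema3aa* 2.66-fold (1.22 to 6.597) lower. In 16 hpf hindbrain cells *sema3aa* and *sema3b* stood at 2.53% and 6.49% of their epidermis-like levels, beside 1.27% for *krt4*. The part of free RNA in their ratios was not tested. When 16 hpf hindbrain cells were clustered alone, 76 of them fell in a cluster named epidermis. Their part was not tested either. These 3 class 3 ligands were lower in the 24 hpf progenitors, and the higher members were receptors and membrane-bound semaphorins. Over the same interval *plxna4* was 14.3-fold (7.38 to 30.9) higher, from 10 to 80 UMIs, *plxnb3* 6.25-fold (2.44 to 18.9), *sema5bb* 3.57-fold (2.15 to 6.1), *sema4ba* 2.57-fold (1.299 to 5.202) and *plxna1a* 2.48-fold (1.899 to 3.25). The neuropilins of progenitors were lower, *nrp2b* 4.76-fold (2.28 to 11.5) and *nrp1a* 2.16-fold (1.41 to 3.399). *nrp2a*, their relative, stayed within 2-fold over that interval. From 24 to 44 hpf *plxnb1a* was 3.47-fold (2.14 to 5.57), *plxna4* 2.74-fold (1.86 to 4.01), *nrp2a* 2.69-fold (1.502 to 4.68) and *sema6e* 2.49-fold (1.14 to 5.19) higher, whereas *plxna1a* was 1.704-fold (1.01 to 3.06) lower, within 2-fold. The 4 members that were 2-fold or more lower had at most 2 UMIs in 44 hpf progenitors, with intervals that held 1.

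In neurons, *plxna4* was 12.7-fold (4.27 to 62.5) higher at 24 than at 16 hpf and *plxna1a* 3.54-fold (1.45 to 11.2), both against at most 5 UMIs in the 83 neurons of 16 hpf. Between these groups *sema3fb* was 6.24-fold (3.14 to 12.8), *sema6dl* 2.92-fold (1.26 to 6.59), *plxdc2* 2.46-fold (1.26 to 4.67) and *sema4bb* 2.01-fold (1.05 to 3.71) lower at 24 hpf. The members lower at 24 hpf thus included both ligands and *plxdc2*. Neurons with *egr2b* were 29 of 83 at 16 hpf and 56 of 388 at 24 hpf. The part of this share in the *sema3fb* ratio was not tested. From 24 to 44 hpf *sema3aa* was 12.1-fold (4.48 to 46.01) higher, *sema6bb* 3.26-fold (1.29 to 9.79) and *sema6e* 3.09-fold (1.56 to 6.68). With no cells removed as outliers in UMIs, genes or mitochondrial share, the ratio of *sema3aa* was 2.08, so its size rests on that removal. The receptors *plxnb1a*, *nrp2b* and *plxnb1b* were 6.39-fold (4.07 to 10.4), 4.95-fold (2.73 to 9.61) and 4.02-fold (2.07 to 8.395) lower, and *plxnb3*, *plxdc2* and *plxna1b* 2.35-fold (1.05 to 5.62), 2.12-fold (1.09 to 4.28) and 2.104-fold (1.17 to 3.904). The plexins present in neurons at 44 hpf were therefore mainly *plxna4* and *plxna1a*, with 98.4 and 46.9 CPM, and no other plexin was above 8.48.

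At 16 hpf, progenitors were assigned to segments by 1 UMI of segment genes: *eng2a* or *eng2b* for the midbrain-hindbrain boundary and rhombomere 1 (MHB-r1), *hoxa2b* alone for r2, *egr2b* without *mafba* for r3, *hoxb1a* for r4, *egr2b* with *mafba* for r5, *mafba* alone for r6 and *hoxd4a* for r7. The gates held 72, 174, 203, 72, 247, 206 and 221 cells in that order, and 165 cells without a segment gene and 172 with genes of several segments were left out. *sema3fb* was concentrated in the r3 and r5 gates. It stood at 67.8 (56.7 to 80.4) in r3 and 89.2 (77.9 to 102) in r5. The other gates were far lower. They had 5.67 (1.55 to 14.5) in MHB-r1, 3.43 (1.26 to 7.46) in r2, 1.34 (0.03403 to 7.49) in r4, 6.47 (3.45 to 11.1) in r6 and 0.898 (0.109 to 3.24) in r7. The r3 gate was 1.31-fold (1.06 to 1.64) below r5, in a comparison added after seeing the data. That interval leaves out the spread between cells. Among the low gates, r6 was the highest and its interval did not overlap that of r7. An r5 cell with no captured UMI of *egr2b* falls in the r6 gate, and one with none of *mafba* in the r3 gate. The part of such cells in the levels of r3 and r6 was not tested.

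*sema3d* had the same 2 gates at the top at a lower level. It stood at 13.9 (9.14 to 20.2) in r3 and 15.1 (10.7 to 20.8) in r5, with 27 and 38 UMIs, which differ by less than counting error. r2 and r4 were at 5.14 (2.35 to 9.76) and 6.72 (2.18 to 15.7), r6 and r7 at 2.49 (0.808 to 5.81) and 2.24 (0.729 to 5.24), and MHB-r1 had no UMI, where 3 UMIs would be 4.25 CPM and at least 1.87-fold lower than in r2 to r7. In r3 and r5 together it was 3.46-fold (2.05 to 6.103) the level of r2, r4 and r6, and in r7 4.17-fold (1.72 to 13.2) below r2 to r6. *sema6dl* was highest in r5, at 13.9 (9.703 to 19.4), then in r3, at 9.76 (5.88 to 15.2), and lowest in MHB-r1 and r7, at 2.84 (0.343 to 10.2) and 2.69 (0.989 to 5.86). Its ratio of r3 and r5 over r2, r4 and r6 was 1.76-fold (1.11 to 2.83), short of 2-fold, and r7 was 3.52-fold (1.55 to 9.86) below r2 to r6. *sema3b* was highest at the posterior end, with 2.28, 1.54, 1.34, 4.78, 4.48 and 10.8 from r2 to r7. In r7 it was 3.33-fold (1.86 to 5.92) higher than in r2 to r6, and in r5 and r6 2.58-fold (1.097 to 6.73) higher than in r2 to r4.

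**Figure D2:**
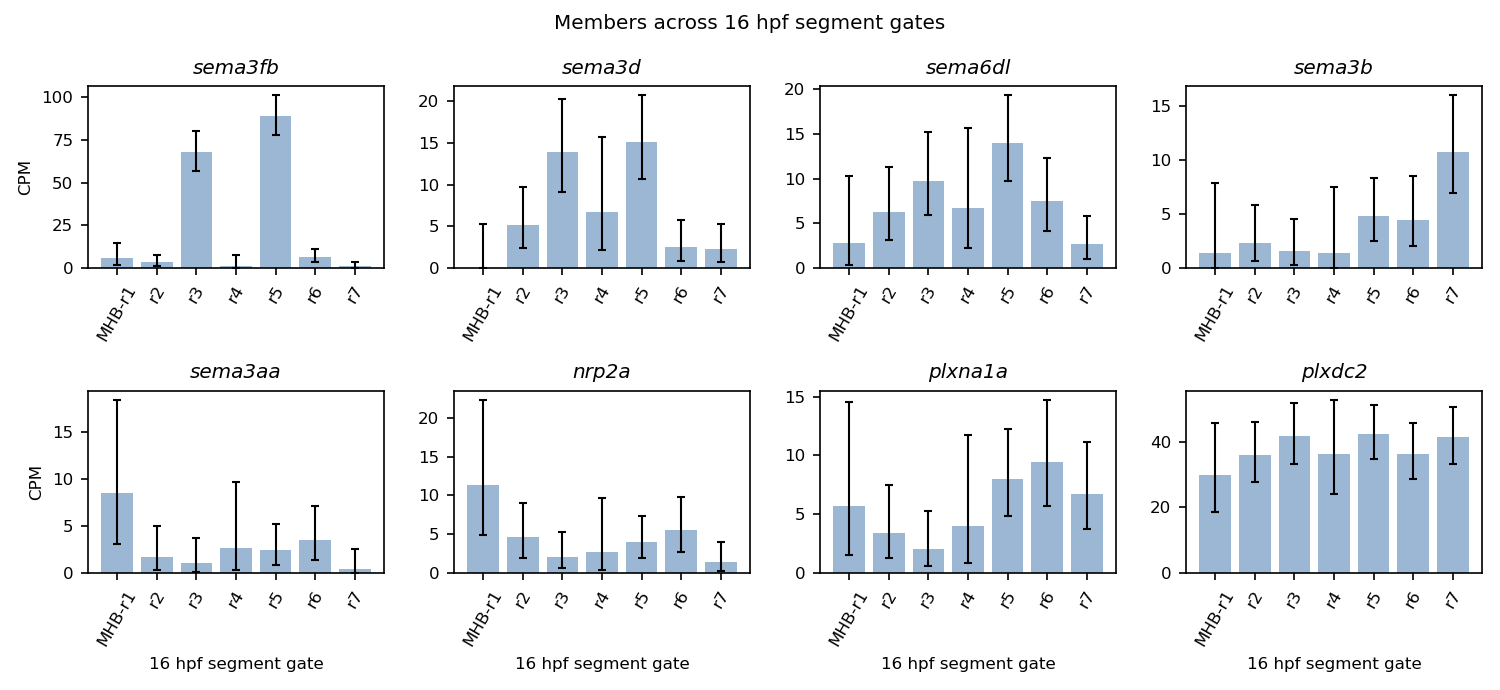
Level of 8 members (y axis, CPM) in the 7 segment gates of 16 hpf progenitors (x axis); bars start at 0 and error bars are exact 95% counting intervals. *sema3fb* stands at 67.8 in r3 and 89.2 in r5 and below 7 elsewhere, whereas *plxdc2* lies between 29.8 and 42.2 in every gate.

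Several receptors had similar levels along the segments. *plxdc2* lay between 29.8 and 42.2, *plxna1b* between 13.4 and 25.1 and *plxnb1b* between 13.9 and 24.2, with intervals that overlapped across gates. *plxna1a* differed along the axis, at 3.43, 2.05 and 4.03 in r2 to r4 and at 7.96 and 9.46 in r5 and r6, 2.95-fold (1.54 to 6.02) higher in the posterior pair. MHB-r1 was 3.34-fold (1.35 to 7.27) higher than r2 to r7 for *nrp2a*, 4.53-fold (1.497 to 11.6) for *sema3aa* and 4.76-fold (1.56 to 12.3) for *sema3fa*, each on no more than 8 UMIs in that gate. *sema3fb* was 5.96-fold (2.31 to 21.97) lower in MHB-r1 than in r2 to r7 and 46.7-fold (12.8 to 387) lower in r7 than in r2 to r6. When the gates were applied to all kept cells instead of hindbrain cells, the ratio for *sema3aa* was 0.963, so its direction there depends on the set of cells. Counted over the family, 2 of 17 measured members (*sema3fb* and *sema3d*) were 2-fold or more higher in r3 and r5 than in r2, r4 and r6 and none was lower, where 2.32% and 1.81% of all genes were. For r5 and r6 over r2 to r4 the counts were 2 and 0 of 17, beside 2.88% and 1.43%. For r7 over r2 to r6 they were 1 and 6 of 22, beside 2.25% and 6.01%, and for MHB-r1 over r2 to r7 6 and 4 of 22, beside 5.58% and 11%.

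Whether *sema3fb* kept its tie to *egr2b*, the transcription factor gene of r3 and r5, was examined at later stages, a comparison added after its 16 hpf values were seen. At both stages *sema3fb* was higher in cells with *egr2b*, by less at 24 hpf. Progenitors with a UMI of *egr2b* had 72.9 (65.7 to 80.6) at 16 hpf and 43.2 (35.1 to 52.6) at 24 hpf, against 3.496 (2.44 to 4.86) and 6.58 (4.72 to 8.93) in those without. The ratio was 20.8-fold (14.7 to 30.4) at 16 hpf and 6.57-fold (4.52 to 9.7) at 24 hpf. Cells in which *egr2b* was not captured count as without it, and the part of capture in these ratios was not tested. Neurons had the same order: at 16 hpf 29 neurons with *egr2b* had 84.2 (52.1 to 129) and 54 without it had 6.37 (1.31 to 18.6), 13.2-fold (3.95 to 69.2) apart. At 24 hpf the 15 UMIs of neurons split into 10 in 56 neurons with *egr2b* and 5 in 332 without. At 44 hpf 7 progenitors had *egr2b*, too few to compare, and *sema3fb* was at 10.7 (6.35 to 16.9) in progenitors without it.

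In the segment, boundary cells and segment centre cells are different progenitors, marked here at 24 hpf by *rfng*, a modifier of Notch signalling at boundaries, and by *etv5b*, a target of Fgf signalling at centres. 73 progenitors had *rfng* only and 268 had *etv5b* only, with a median of 8993 and 8804 UMIs. The 35 with both genes were left out. The study used ventral progenitors for these cells, whereas the gates here took every dorsoventral position. *sema3fb* also differed along that axis, and the part of position was not tested. *sema3fb* stood at 35.6 (23.3 to 52.2) in *rfng* cells, 10.04 (6.501 to 14.8) in *etv5b* cells and 17.2 (13.7 to 21.3) in the 630 progenitors with neither. It was 3.54-fold (1.97 to 6.399) higher in *rfng* than in *etv5b* cells. 23 of the *rfng* cells and 67 of the *etv5b* cells had *egr2b*, and the comparison was repeated with and without it. Among those with *egr2b*, *rfng* cells had 74.8 (45.7 to 115) and *etv5b* cells 27.1 (16.04 to 42.8), a ratio of 2.76-fold (1.39 to 5.54). The median UMIs of these groups were 12179 and 9098. Among those without, the levels were 12.97 (4.76 to 28.2) and 3.84 (1.54 to 7.91) on 6 and 7 UMIs, too few to compare. Of the 10 other members with at least 20 UMIs in the pair of groups, none had an interval clear of 1, among them *plxna1b* at 1.799-fold (0.975 to 3.22), *plxdc2* at 1.53-fold (0.923 to 2.47) and *plxna1a* at 0.499-fold (0.173 to 1.18). Of all 11 measured members 1 was 2-fold or more higher and 3 lower, beside 2.21% and 5.05% of all genes. The 3 lower ones had at most 6 UMIs in *rfng* cells, so few UMIs limit this comparison.

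**Figure D3:**
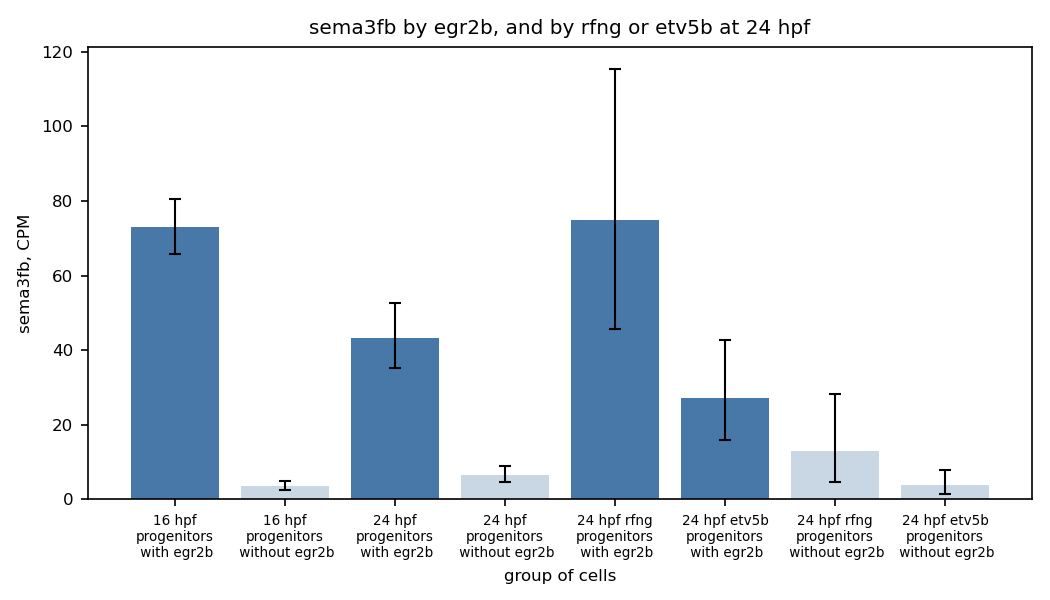
Level of *sema3fb* (y axis, CPM) in progenitors with a UMI of *egr2b* (dark bars) and without (light bars), for all progenitors of 16 and 24 hpf and for *rfng* and *etv5b* cells of 24 hpf (x axis); bars start at 0 and error bars are exact 95% counting intervals. The dark bars stand between 27.1 and 74.8 and the light bars between 3.496 and 12.97.

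Neurons taken by the study to respond to boundary semaphorins express *fgf20a*, and 2, 9 and 3 such neurons were found at the successive stages, too few for a comparison. In the 9 cells of 24 hpf *plxna4* had 21 UMIs, spread over 4 cells, which is 258 (159.8 to 395) CPM. The 379 other neurons had 46.9 (39.2 to 55.8). These intervals cover counting error only, not the spread between so few cells. The progenitor gene *sox3* stood at 356 CPM in the 9 cells and at 1992 in the 379 others. *plxna4* was 5.65-fold higher in neurons than in progenitors of that stage. The part of differentiation state in its level here was not tested. *nrp2b* had 4 UMIs in the 9 cells, *plxna1a* and *plxnb1a* 3 each, and *nrp1a* and *nrp2a* 1 each. *sema3fb* had none.

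Along the dorsoventral axis *sema3d* and *plxdc2* were lower in both ventral gates than in dorsal progenitors at 16 hpf, and *nrp1a*, *plxnb1a* and *plxna1a* in 1 of them. The 16 hpf progenitors were split into dorsal cells (*zic2b* only), medial cells (*gsx1*, *gsx2* or *ptf1a*), ventral cells (*dbx1a* or *dbx1b*), ventralmost cells (*nkx6.1* or *nkx2* genes) and floor plate cells (*shha* or *shhb*), with 508, 190, 291, 186 and 32 cells. *sema3d* stood at 14.2 (11.1 to 17.8) in dorsal cells, 3.96 (1.71 to 7.801) in medial, 1.01 (0.209 to 2.96) in ventral and 1.63 (0.335 to 4.75) in ventralmost cells. It was 13.99-fold (4.601 to 69.4) lower in ventral than in dorsal cells. The 32 floor plate cells had 18.2 (5.91 to 42.5), a wide interval that held the dorsal level and overlapped that of medial cells. *plxdc2* stood at 54.3 (48.1 to 61.1) in dorsal and 53.9 (44.3 to 65.1) in medial cells and was lower below, at 26.98 (21.4 to 33.6) in ventral and 24.9 (18.3 to 33.3) in ventralmost cells. *nrp1a*, *plxnb1a* and *plxna1a* were 2.48-fold (1.303 to 5.11), 2.75-fold (1.196 to 7.36) and 2.53-fold (1.204 to 5.93) lower in ventral than in dorsal cells, and none of the 3 was 2-fold apart from dorsal in ventralmost cells. *nrp1a* and *nrp2a* were 5.07-fold (1.86 to 19.3) and 6.95-fold (1.79 to 59.7) lower in medial than in dorsal cells. The ligands *sema3fa* and *sema3b* were 4.47-fold (1.35 to 23.3) and 2.33-fold (1.05 to 5.86) lower in ventral cells. *sema5ba*, a transmembrane semaphorin of class 5, had the reverse order, 2.81-fold (1.26 to 6.58) higher in ventral cells, and *sema4bb* was 2.55-fold (1.27 to 4.69) higher in the floor plate gate on 12 UMIs. Of 18 measured members 2 were 2-fold or more higher and 7 lower in ventral than in dorsal cells, beside 2.38% and 3.32% of all genes. The counts were 1 and 6 of 17 in medial cells, beside 2.03% and 3.31%, 0 and 2 of 16 in ventralmost cells, beside 3.21% and 3.37%, and 3 and 0 of 15 in floor plate cells, beside 9.75% and 13.5%.

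At 24 hpf these gates held 262 dorsal, 195 medial, 214 ventral and 115 ventralmost progenitors, and *plxna4* and *plxna1a* differed between them. *plxna4* stood at 4.48 (2.15 to 8.23) in dorsal, 17.8 (12.04 to 25.5) in medial, 4.66 (2.01 to 9.17) in ventral and 17.3 (10.2 to 27.3) in ventralmost progenitors, 3.99-fold (1.897 to 9.14) and 3.86-fold (1.69 to 9.35) higher than dorsal in the medial and ventralmost gates. The dorsal and ventral gates were alike for this gene. *plxna1a* had 24.2 (18.2 to 31.5) in dorsal and 9.89 (5.76 to 15.8) in ventral cells, again 2.44-fold (1.39 to 4.49) lower ventrally. *sema3fb* had 22.8 (16.99 to 30.01) in dorsal and 7.67 (3.31 to 15.1) in ventralmost cells, 2.98-fold (1.402 to 7.26) apart. *plxnb2a* and *plxna1b* were 6.77-fold (1.62 to 60.2) and 2.54-fold (1.12 to 6.47) lower in medial than in dorsal cells. Of 11, 9 and 9 measured members in the medial, ventral and ventralmost gates, 1, 0 and 1 were 2-fold or more higher than dorsal, beside 3.36%, 3.91% and 4.31% of all genes, and 2, 1 and 2 were lower, beside 2.35%, 3.21% and 4.19%. The dorsal gate of 44 hpf held 13 cells and was not compared.

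At 44 hpf, neurons were separated by transcription factor genes of the dorsal and ventral neuron types into 7 gates of at least 20 cells, each compared with all neurons outside it. The 237 neurons in several gates were put in none of them and stayed among the neurons outside. The gates held 156 *barhl*/*lhx9*, 40 *dmbx1a*, 64 *tlx*/*lmx1b*, 236 *otp*, 84 *pax2a*, 73 *tal*/*gata* and 30 motor neurons (*isl1* or *isl2a* with *phox2a* or *phox2bb*), and the *vsx* gate, with 18, was not used. *plxna4* differed widely between them. It stood at 219 (164 to 288) in *pax2a* neurons, 184 (112 to 284) in *dmbx1a*, 126 (93.96 to 165) in *barhl*/*lhx9*, 103 (63.2 to 159.8) in *tlx*/*lmx1b*, 70.9 (51.7 to 94.9) in *otp*, 26.3 (3.18 to 94.98) in motor and 19.3 (5.26 to 49.5) in *tal*/*gata* neurons. The 2 highest gates overlapped in their intervals, as did the 2 lowest, and the *pax2a* gate was clear of the *tlx*/*lmx1b* gate and of those below it. Against the other neurons the *pax2a* gate was 2.46-fold (1.79 to 3.32) higher, the *tal*/*gata* gate 5.37-fold (2.08 to 19.8) lower and the motor gate 3.81-fold (1.05 to 31.6) lower. When cells in several gates were counted in each of them, the *tal*/*gata* ratio was 0.534, short of 2-fold lower.

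*plxna1a* had a different order. It was highest in *barhl*/*lhx9* neurons, at 87.1 (61.0 to 121), with 82.7 (37.8 to 157) in *dmbx1a* and 77.6 (43.4 to 128) in *tlx*/*lmx1b*, and lower in *otp*, *pax2a*, *tal*/*gata* and motor neurons, at 47.3, 25.3, 14.5 and 13.1. The *barhl*/*lhx9* gate was 2.11-fold (1.41 to 3.09) higher than other neurons and the *tal*/*gata* gate 3.39-fold (1.14 to 16.6) lower. The neuropilins were highest in motor neurons. *nrp1a* stood at 105 (45.4 to 207) in motor neurons and *nrp2a* at 118 (54.1 to 225), on 8 and 9 UMIs in 30 cells, 6.52-fold (2.68 to 13.8) and 5.45-fold (2.39 to 10.95) above the other neurons. The next gate for *nrp1a* was *otp*, at 33.1 (20.5 to 50.6), 2.26-fold (1.26 to 3.94) higher than the rest. *nrp2a* was instead low in *otp* neurons, at 6.301 (1.72 to 16.1), 4.46-fold (1.67 to 16.8) below the rest, and in *barhl*/*lhx9* neurons, 3.63-fold (1.19 to 17.97) below. It was 2.33-fold (1.07 to 4.55) higher in *tlx*/*lmx1b* neurons and had no UMI in *tal*/*gata* neurons, at least 1.76-fold below the rest with 3 UMIs taken for that 0.

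Of the clusters behind these neurons, one led by *barhl2* had the endothelial gene *sox7* among its 10 leading genes and one led by *nefmb* had *isl1* and *prph*, which also mark cranial ganglia. Without the cells of both, a choice made after seeing the data, the *barhl*/*lhx9* ratio of *plxna1a* was 1.33, *nrp2a* had no UMI in that gate, and the motor gate gave no comparison.

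**Figure D4:**
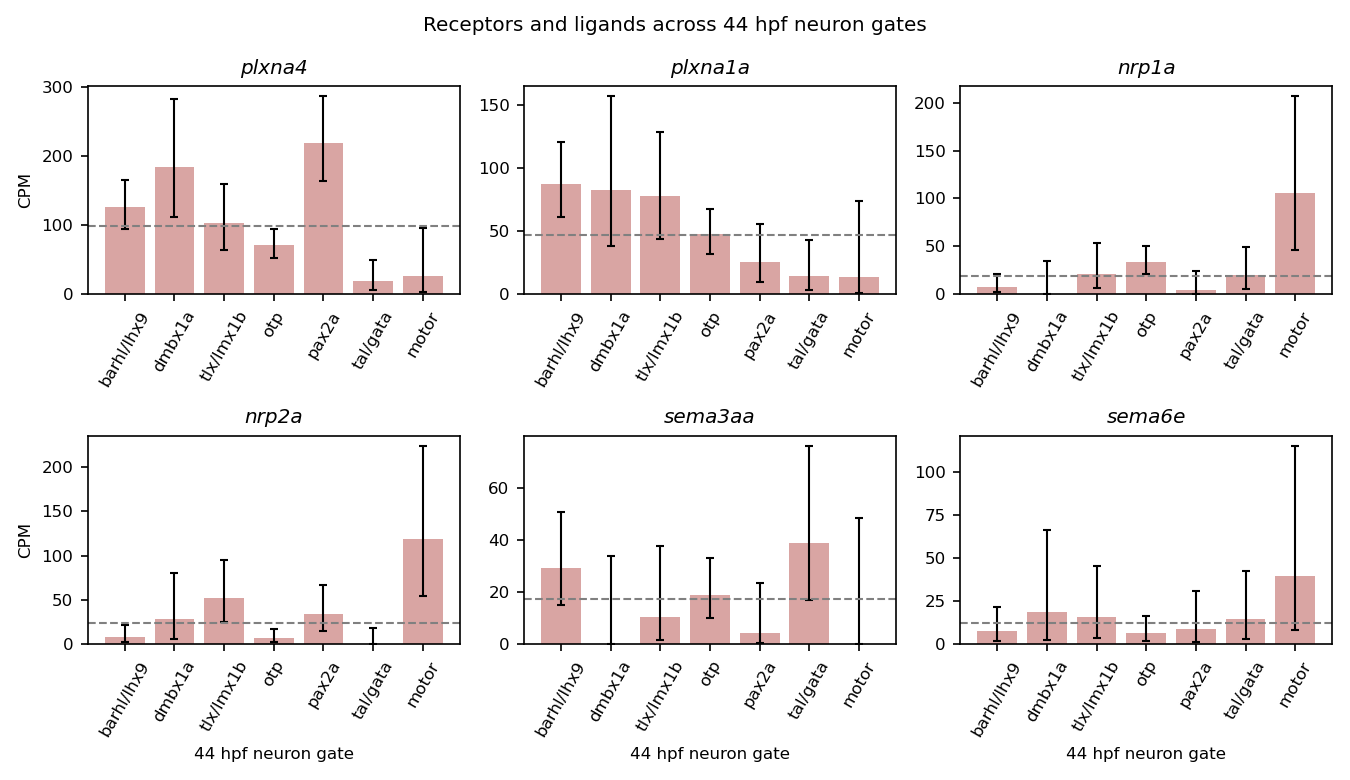
Level of 4 receptors and 2 ligands (y axis, CPM) in 7 gates of 44 hpf neurons (x axis); bars start at 0, error bars are exact 95% counting intervals and the dashed line is the level in all 1143 neurons. *plxna4* is highest in *pax2a* neurons at 219, whereas *nrp1a* and *nrp2a* are highest in motor neurons at 105 and 118.

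Among semaphorins, no measured member was 2-fold or more apart from the other neurons in a gate with an interval clear of 1. Over all roles 12 members were measured in each gate. In the gate order above, 2, 0, 1, 1, 2, 4 and 7 of them were 2-fold or more higher. Lower by as much were 5, 5, 4, 2, 3, 4 and 5. All genes had 2.95%, 8.02%, 9.47%, 3.28%, 5.05%, 7.05% and 12.8% higher and 17.5%, 29.5%, 15.9%, 9%, 16.1%, 17.9% and 32.1% lower. 3 UMIs are 4.73 CPM in the *otp* and 39.4 CPM in the motor gate, so depth limits this result. *sema3aa*, the most abundant class 3 ligand of 44 hpf neurons, stood at 38.6 (16.7 to 76.1) in *tal*/*gata*, 29.03 (15.0 to 50.7) in *barhl*/*lhx9* and 18.9 (9.77 to 33.02) in *otp* neurons, and had no UMI in *dmbx1a* and motor neurons, whose small totals allow up to 27.6 and 39.4 CPM. *sema3b* had 23.6 (13.2 to 38.97) in *otp* neurons and no UMI in the other 6 gates, with 17 UMIs in all neurons, below the minimum of 20 for a comparison. *sema6e*, a class 6 semaphorin, lay between 6.301 and 39.4, with overlapping intervals. *elavl3* stood between 1429 and 1933 in the 7 gates, and *hbae3*, a globin of blood cells found free in this library, was at 34.7 to 58.1 in 6 of them and had no UMI in the motor gate.

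Outside the hindbrain, clusters were named from marker genes. Neural crest-like cells numbered 355, 147 and 21, in a cluster led by *foxd3* that held all of them at 16 hpf and in one led by *grem2b*, with arch mesenchyme genes among its leading genes, that held 110 of them at 24 hpf. *sox10*, a defining crest gene, stood at 496 in the crest-like cells of 16 hpf and at 6.303 in hindbrain cells. The cells called head mesenchyme or mesendoderm-like were 341, 211 and 349. They came mainly from clusters led by *tmem88a* at 16 hpf, *fmoda* and *tmem88a* at 24 hpf and the globin *hbbe1.1* at 44 hpf. The cartilage matrix gene *matn4* stood at 3.88, 109.6 and 441 in them, so that marker was near absent at 16 hpf, and *hbae3* at 951 at 44 hpf. The *tmem88a* cluster, with 325 cells at 16 hpf and 90 at 24 hpf, had the heart field genes *nkx2.5* and *aldh1a2* among its leading genes. Epidermis-like cells numbered 210 and 140 at 16 and 24 hpf, with 6246 and 13518 of *krt4*, and cranial ganglia-like cells 24, 116 and 140. Vasculature-like cells, with 10, 12 and 1, and the 14 otic vesicle-like cells of 16 hpf were too few to compare.

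Neural crest-like cells had high *nrp2b* at 16 and 24 hpf, high *nrp2a* and *plxna4* at 16 hpf, and low *sema3fb* and *plxdc2*. *nrp2a* had 410 UMIs in crest-like cells of 16 hpf, 104 (94.3 to 115) CPM, against 6.02 (4.92 to 7.28) in hindbrain cells, 17.3-fold (13.9 to 21.6) higher. It was the highest neuropilin level of the non-neural classes with at least 20 cells. At 24 hpf the crest-like level was 17.4 (11.7 to 24.8), and within it 31.6 (16.8 to 53.99) in the *foxd3*-led and 12.95 (7.55 to 20.7) in the *grem2b*-led cluster. Hindbrain neurons of that stage had 22.8 and progenitors 4.58. *nrp2b* was 3.72-fold (2.69 to 5.13) and 2.59-fold (1.54 to 4.19) higher at the 2 stages. *plxna4* was 18.1-fold (9.72 to 36.1) higher in crest-like cells at 16 hpf, at 13.5 (10.1 to 17.6), and reached 53.4 (33.5 to 80.9) in the 37 *foxd3*-led cells of 24 hpf, beside 53.1 in hindbrain neurons of that stage. The transmembrane semaphorins *sema6e* and *sema4ab* and the receptor *plxna3* were also high. *sema6e* was 5.003-fold (2.996 to 8.39), *plxna3* 3.03-fold (1.802 to 5.01) and *sema4ab* 2.95-fold (2.15 to 4.04) higher at 16 hpf, the last 1.497 after thinning. At 24 hpf *sema5a* was 9.18-fold (4.66 to 18.3) and *sema3d* 7.87-fold (3.23 to 19.2) higher. *sema3fb* and *plxdc2* were low in crest-like cells, 8.25-fold (4.78 to 15.6) and 5.198-fold (3.59 to 7.82) below hindbrain cells at 16 hpf. In all, 6 of 27 measured members were 2-fold or more higher and 8 lower at 16 hpf, where 8.78% and 12.7% of all genes were, and 6 and 8 of 27 at 24 hpf, beside 12.2% and 21.5%.

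Head mesenchyme or mesendoderm-like cells had high neuropilins and *plxnb2a*. The clusters in this class differed between the stages, so its successive levels are not those of a single tissue. The part of the clusters in the stage differences was not tested. *nrp2b* stood at 44.96 (37.8 to 53.1), 24.5 (18.04 to 32.4) and 10.2 (5.59 to 17.2) at the successive stages and *nrp2a* at 39.8 (33.1 to 47.5), 55.6 (45.6 to 67.01) and 40.2 (30.3 to 52.3). *nrp1b*, which hindbrain cells barely had (3 and 7 UMIs at 16 and 24 hpf), was 37.6-fold (11.2 to 198) and 29.6-fold (12.8 to 79.96) higher. *plxnb2a*, a receptor of class 4 semaphorins in mammals, stood at 31.1 (25.2 to 37.9), 33.1 (25.6 to 42.2) and 23.4 (15.98 to 32.99) against 6.19 (5.08 to 7.47), 4.13 (3.12 to 5.36) and 2.75 (1.65 to 4.29) in hindbrain cells. Mesenchyme-like cells exceeded hindbrain cells in every library. The ratios were 5.02-fold (3.77 to 6.67), 8.03-fold (5.53 to 11.7) and 8.504-fold (4.68 to 15.9). The ligand *sema3aa* was 15.1-fold (10.6 to 21.7), 14.9-fold (7.47 to 31.3) and 2.63-fold (1.71 to 3.997) higher, and hindbrain cells of 44 hpf had 9.98 (7.76 to 12.6) of it. With no cells removed, cells were clustered anew, and the 16 hpf class was absent or below 20 cells and gave no ratio. The 24 hpf ratio was then 6.04, in a class whose cells may also differ. After thinning the 44 hpf ratio was 1.45. Another secreted ligand, *sema3fa*, was 5.34-fold (3.11 to 9.07) and 4.78-fold (2.95 to 7.75) higher at 24 and 44 hpf, and the transmembrane *sema5a* 20.2-fold (6.52 to 83.02) at 44 hpf. *plxna4* was 4.52-fold (2.26 to 10.6) and 17.0-fold (7.76 to 46.5) lower than in hindbrain cells at these stages. 10 of 28 measured members were 2-fold or more higher and 6 lower at 16 hpf, beside 14.1% and 10.5% of all genes, and 10 and 7 of 26 at 24 hpf, beside 14.4% and 17.5%.

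**Figure D5:**
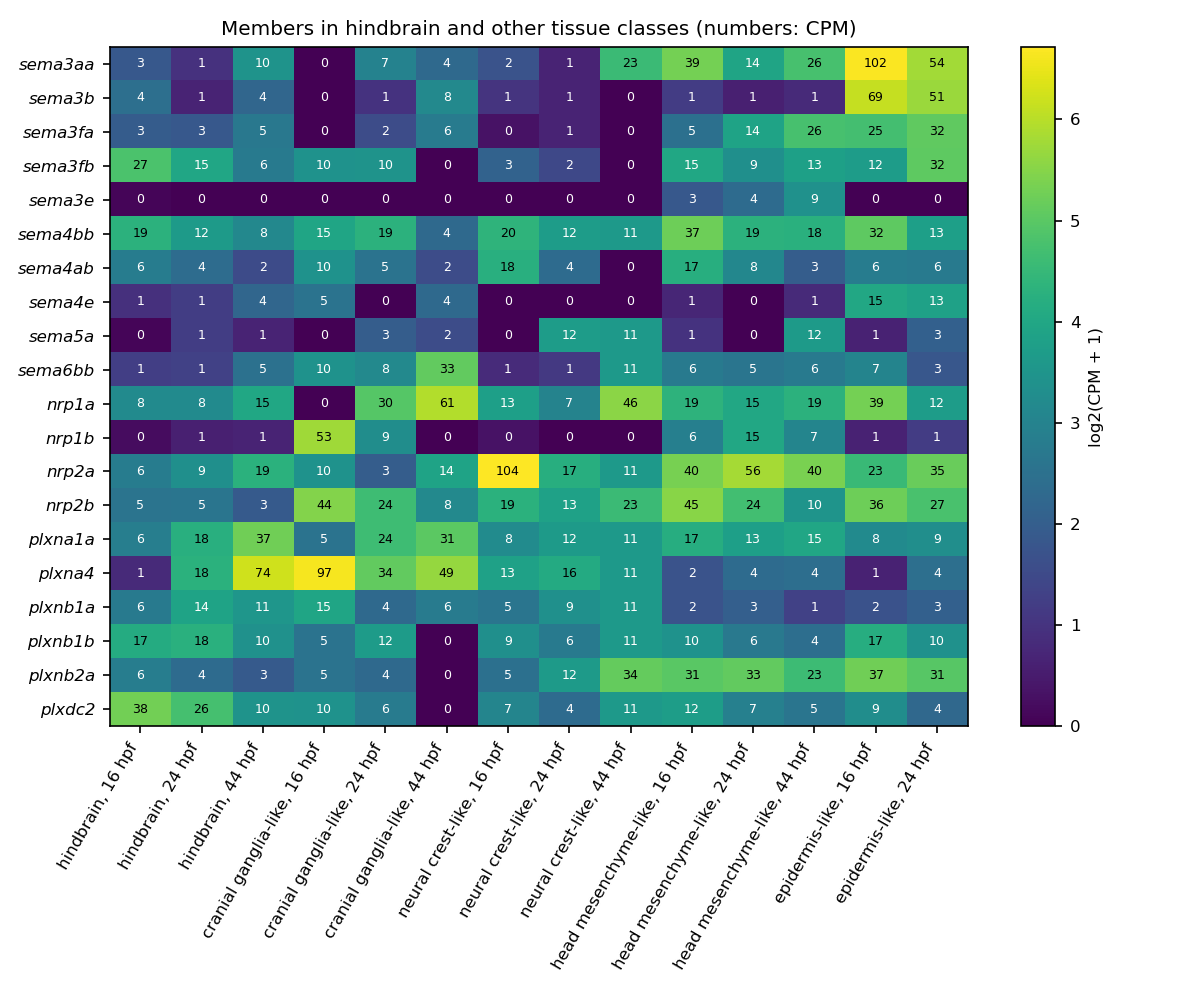
Level of 20 members (rows) in hindbrain cells and in 4 other classes of cells with at least 20 cells at each stage (columns); the colour is log2(CPM + 1) and the number in each cell the level in CPM. *sema3aa* reaches 102 in epidermis-like and *nrp2a* 104 in neural crest-like cells of 16 hpf, and *plxdc2* is highest in hindbrain cells at 16 and 24 hpf.

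Epidermis-like cells had the highest levels of *sema3aa* and *sema3b* of all the classes with at least 20 cells. *sema3aa* had 185 and 85 UMIs in them at 16 and 24 hpf, 102 (87.7 to 118) and 54.1 (43.2 to 66.9) CPM, against 2.58 (1.88 to 3.45) and 0.958 (0.51 to 1.64) in hindbrain cells. The ratios were 39.5-fold (28.4 to 56.01) and 56.5-fold (31.3 to 110.5), and the second was 15.98 with no cells removed. The hindbrain level was 2.53% and 1.77% of the epidermis-like one, beside 1.27% and 1.101% for the keratin *krt4*, and the part of free RNA in it was not tested. *sema3b* stood at 68.8 (57.3 to 82.01) and 50.96 (40.4 to 63.4), 15.4-fold (11.5 to 20.7) and 86.4-fold (41.8 to 207) above hindbrain cells, whose level was 6.49% and 1.16% of the epidermis-like one, the second close to that of *krt4*, and the part of free RNA was not tested here either. *sema3fa* was also higher in epidermis-like cells at both stages, at 25.3 (18.5 to 33.8) and 32.5 (24.2 to 42.7). *sema4e*, a membrane-bound class 4 semaphorin, was 16.8-fold (8.79 to 33.3) and 10.1-fold (5.12 to 20.1) higher. *sema3fb* was 2.25-fold (1.47 to 3.62) below hindbrain cells at 16 hpf and 2.15-fold (1.54 to 2.94) above at 24 hpf. *plxnb2a* was 6.05-fold (4.399 to 8.27) and 7.41-fold (4.93 to 11.1) higher here too, and the neuropilins *nrp1a*, *nrp2a* and *nrp2b* were 4.704-fold (3.48 to 6.303), 3.75-fold (2.55 to 5.43) and 7.29-fold (5.21 to 10.2) higher at 16 hpf. 12 of 27 measured members were 2-fold or more higher and 8 lower at 16 hpf, beside 19.7% and 11.7% of all genes, and 11 and 7 of 29 at 24 hpf, beside 17.6% and 21%.

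Against all hindbrain cells, the cranial ganglia-like cells, sensory neurons outside the hindbrain, had high *plxna4* at 16 hpf and high *nrp1a* at 24 and 44 hpf. Hindbrain cells were mostly progenitors at 16 and 24 hpf, so these ratios also set neurons against progenitors. Hindbrain neurons alone had 4.17, 53.1 and 98.4 CPM of *plxna4* at the successive stages, and 15.3, 24.2 and 18.2 of *nrp1a*. *plxna4* stood at 96.9 (59.2 to 149.7) in the 24 ganglia-like cells of 16 hpf, on 20 UMIs, when hindbrain cells had 0.745 (0.397 to 1.27), 130.1-fold (61.6 to 285) higher. At 24 and 44 hpf it was 33.5 (23.2 to 46.9) and 49.2 (31.8 to 72.6), beside 18.4 (16.2 to 20.9) and 74.5 (68.2 to 81.2) in hindbrain cells. *nrp1a* was 3.59-fold (2.31 to 5.41) and 4.05-fold (2.62 to 6.104) higher than in hindbrain cells at 24 and 44 hpf, reaching 60.95 (41.4 to 86.5), and the last ratio was 9.18 with finer clusters. *nrp2b* was 8.75-fold (3.87 to 17.4) and 4.59-fold (2.76 to 7.39) higher at 16 and 24 hpf, and *nrp2a* 3.09-fold (1.03 to 15.2) lower at 24 hpf, while after thinning the ratios of *nrp2b* were 3.69 and 2.27. *nrp1b* had 11 UMIs in the 24 cells of 16 hpf, 53.3 (26.6 to 95.4), its highest level of the classes with at least 20 cells. *sema6bb* was 5.36-fold (2.04 to 12.7) and 7.22-fold (3.76 to 13.4) higher at 24 and 44 hpf, at 33.4 (19.5 to 53.5) at the later stage. *plxnb1a*, high in hindbrain neurons of 24 hpf, was 3.53-fold (1.36 to 13.1) below hindbrain cells in ganglia-like cells of that stage.

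The floor plate consists of ventral midline cells that release guidance cues. The 2 clusters named floor plate-like belong to the hindbrain set and are given as levels only. The one led by *shha* held 27 and 22 cells at 16 and 24 hpf. The one led by *nkx2.9*, with 103 and 104 cells, has the motor neuron genes *phox2a* and *phox2bb* among its leading genes and 1141 CPM of *elavl3* at 24 hpf, so it is not taken as midline cells alone. *nrp1a* had 14 UMIs in the 27 cells of the *shha*-led cluster at 16 hpf and 14 in its 22 cells at 24 hpf, 66.03 (36.1 to 111) and 101 (55.3 to 169.9), beside 8.19 and 8.25 in all hindbrain cells. *nrp2a* was instead high in the *nkx2.9*-led cluster, standing at 69.6 (51.99 to 91.3) at 24 hpf. *plxdc2* had no UMI in the *shha*-led cluster at these stages, which allows up to 14.1 and 21.7 CPM, and stood at 5.97 (1.94 to 13.9) and 5.36 (1.46 to 13.7) in the *nkx2.9*-led one.

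Genes known to act with semaphorin receptors were taken from a list of 40, of which 35 are rows of the tables. In neurons against progenitors 6, 8 and 7 of 20, 22 and 16 measured genes were 2-fold or more higher at the 3 stages and 5, 2 and 4 were lower, beside 14.6%, 20.1% and 24.2% of all genes higher and 19.9%, 17.5% and 18.1% lower. The collapsin response mediators, cytoplasmic proteins that carry class 3 signals to the cytoskeleton, were among the higher ones. *dpysl3* stood at 73.6 (55.1 to 96.3), 140.3 (127 to 155) and 220.2 (204 to 237) in neurons, 6.92-fold (4.97 to 9.49), 16.4-fold (12.7 to 21.3) and 4.76-fold (3.77 to 6.08) above progenitors, and *dpysl4* was 13.1-fold (9.45 to 18.0), 9.13-fold (7.31 to 11.5) and 6.31-fold (4.22 to 9.804) higher. The kinase genes *fyna* and *gsk3b*, which act downstream of plexins, were 4.95-fold (4.05 to 6.06) and 3.26-fold (2.68 to 3.98) higher at 24 hpf. *rnd1b*, a small GTPase that binds plexins, had the opposite order, 2.14-fold (1.86 to 2.47) and 3.03-fold (2.49 to 3.69) lower in neurons at 24 and 44 hpf. *farp2*, an exchange factor bound by A-type plexins in mouse, was 18.05-fold (5.57 to 92.7) lower in neurons at 44 hpf.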

How the data were processed

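The deposited tables hold counts of UMIs per gene and cell barcode, made by the authors with Cell Ranger (version not given in the sources used here) on GRCz10 with Ensembl gene models, 1 library a stage, with no further normalization. The list of aggregated libraries holds no measurement and was not used. Cells were removed where UMIs, genes or the mitochondrial share lay beyond 3 median absolute deviations. Merged cells were clustered in Seurat 5.3.0 (R 4.3.3; scale factor 10000, 2000 variable genes without the members, 30 components, 20 neighbours, resolution 0.8), giving 27 clusters.

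A cluster was named where at least 3 markers of a list were present in at least 10% of its cells and enriched 2-fold (1.5-fold for neural lists). A tissue list also needed a gene among the 10 leading genes, and more there than every other list. Tissue names, floor plate included, came before neural ones. These limits were set after the clusters were seen. Scrublet in scanpy 1.11.5 called 39 of 9026 cells, or 0.432%, too few to have worked, so no doublets were removed.

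UMIs were summed per group and divided by the group's total (python 3.11.15, numpy 2.4.6, pandas 2.3.3). Levels have exact Poisson and ratios exact conditional binomial 95% intervals (scipy 1.17.1), which cover counting error only. The code was tested on simulated data. The precision follows the depth: 28566809, 25733058 and 12351301 UMIs in the 3 libraries. Ratios were read with at least 20 UMIs over both groups, and a fold of 2 stands in for a test. A count of 0 was set to 3 UMIs for a bound and in the median log2 ratios. The text names members past 2-fold with an interval clear of 1, the 3 highest of each role, *sema3fb* and their duplicates. The members, lists and gates were chosen with earlier results of these data known, and the split by *egr2b* and the comparison of r3 with r5 were added after seeing the data. 691 cells of 44 hpf had fewer than 2000 UMIs and could not be gated. Alternatives changed the removal of cells, depth, UMI minimum, gates, doublets and clustering.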

Additional observations from a re-analysis of the deposited data

Results flagged for a closer look

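1 gene stood out because its difference between neurons and progenitors had opposite directions at different stages. The ratio of *plxnb1a*, neurons over progenitors, was 10.4 at 16 hpf and 8.24 at 24 hpf and 0.372 at 44 hpf. From 24 to 44 hpf its ratio was 3.47 in progenitors and 0.157 in neurons, so the ratios lay on opposite sides of 1. With 1 library a stage, the difference between stages was not tested.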

How the results depend on the processing

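No paired analysis was possible because each stage has 1 library, and for the same reason no replicate could be left out. 242 single-gene ratios and 24 counts of members 2-fold or more apart (higher and lower together) were recomputed. Of 1741 alternative ratios, 1684 lay within the original interval and 56 outside it. Besides these, 1 ratio that was past 2-fold was reversed: the MHB-r1 ratio of *sema3aa* was 0.963 with the gates applied to all cells. Direction was not checked for *sema3fb* ratios within 2-fold or with an interval that held 1. After thinning, 16 hpf neurons over progenitors went from 1.22 to 0.461 for *sema3fb*. Its ratio of 44 over 24 hpf progenitors went from 0.642 to 1.36. Some alternatives could not differ. A changed UMI minimum alters which members are compared and not their ratios. The clusters led by *barhl2* and *nefmb* held no cell of 16 hpf, so leaving them out changed nothing at that stage. The number within the interval is thus not a count of independent checks. Of 176 alternative counts, 115 were within 1.5 times the original, and the others follow.

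Thinned to 2000 UMIs, which lowers the number of members above the 20-UMI minimum, the counts for neurons against progenitors were 6 at 16 hpf and 5 at 24 hpf. Between stages they were 7 for progenitors from 16 to 24 hpf, 3 for progenitors from 24 to 44 hpf and 2 for neurons from 16 to 24 hpf. For segments they were 1 for r3 and r5, 1 for r7 and 4 for MHB-r1. For epidermis, mesenchyme and crest-like cells they were 10, 8 and 9 at 16 hpf and 10, 7 and 9 at 24 hpf. Against dorsal progenitors they were 1 for medial and 1 for ventral cells at 16 hpf and 1, 0 and 1 for medial, ventral and ventralmost cells at 24 hpf.

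With no minimum beyond 1 UMI, neurons against progenitors gave 24, 23 and 26 at the 3 stages. Progenitors gave 20 and 21 and neurons 26 and 20 between successive stages. r3 and r5, r5 and r6, r7 and MHB-r1 gave 14, 14, 17 and 23. Epidermis and crest-like cells gave 32 and 25 at 16 hpf, and mesenchyme and crest-like cells 29 and 23 at 24 hpf.

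With at least 50 UMIs, neurons against progenitors gave 7 at 16 hpf and 6 at 44 hpf. Progenitors gave 7 and 3, and neurons 3 from 16 to 24 hpf. r5 and r6, r7 and MHB-r1 gave 1, 4 and 5. Epidermis-like cells gave 13 at 16 hpf, and mesenchyme and crest-like cells 11 and 7 at 24 hpf.

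With clusters of each stage in place of the gates, neurons against progenitors gave 7 at 16 hpf, progenitors 6 and 5, and neurons 14 from 24 to 44 hpf. Clusters named neither neural progenitor nor differentiating neuron were left out there, so the 16 hpf progenitors were a single cluster of 446 cells. Those left out at 16 hpf included clusters named epidermis, roof plate and floor plate, with 76, 41 and 30 cells. With gates over all cells r3 and r5 gave 5. For r5 and r6, no removal of cells gave 1, the mean over single cells 4 and gates of 2 UMIs 1. Against dorsal progenitors, gates of 2 UMIs gave 4 for ventralmost cells at 16 hpf and 3 for ventral cells at 24 hpf, and the mean over single cells gave 6 for floor plate cells at 16 hpf and 5 for ventralmost cells at 24 hpf. At 24 hpf gates over all cells gave 5, 4 and 6 for medial, ventral and ventralmost cells, and no removal of cells 2 for ventral cells. Beyond the number of members tested, the causes were not tested. Depth limits the comparisons: members under 20 UMIs were not compared, and the 44 hpf library has the fewest UMIs a cell.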
